A study of Mus musculus with 9 samples.

Results

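Kinesins are motor proteins that walk along microtubules, and the genes described here are those of the deposited table whose symbol is Kif or Kifc followed by a number: 41 of 21210 genes. Their transcripts were measured at embryonic day 14.5 in C57BL/6 mice, by strand-specific sequencing of poly-A RNA from sorted cells of the lateral cortex, in 9 libraries that form 3 groups of 3. Neurons were sorted by a green reporter of Tubb3, a neuronal tubulin gene. Differentiating progenitors were sorted by a red fluorescent reporter of Btg2, which marks progenitors about to make neurons, and proliferating progenitors were the cells negative for that red reporter. The embryos of all 3 groups carried both reporters, although the genotype label names a green protein for each of them while the library titles name a red one for the Btg2 gate. Each library was a pool of sorted cells taken from several embryos of different litters, after meninges and ganglionic eminences had been removed.

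Dividing cells need kinesins that push spindle poles apart, move and align chromosomes, and build the midzone where a cell is cut in 2. Neurons do not divide, and use other kinesins to carry vesicles, mitochondria and receptors into axons and dendrites. A few kinesins belong to neither set and work in cilia, at the Golgi, on endosomes or as regulators of signalling. By these textbook roles the 41 genes were put into 13 mitotic kinesins, 13 kinesins of axonal and dendritic transport, and 15 others, which include the pseudogenes Kif22-ps and Kifc5c-ps. The classes were chosen with earlier results of these data known. Kinesins filed under other symbols, such as Cenpe, are outside the symbol pattern and are given with the partner genes.

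Values are normalised read counts, as the authors deposited them in whole numbers, and values of 3 libraries are given in the order of replicates 1, 2 and 3. A gene was tested when it reached 10 in at least 3 libraries, and was called at an adjusted p under 0.05 in limma, fitted on log2(value + 1) across all 15828 genes that passed. Of the 41 members, 40 passed and Kif22-ps did not. Log2 changes are on the log2(value + 1) scale, with neurons over progenitors or differentiating over proliferating progenitors, and ± after a log2 change is its standard error. Fold changes are 2 raised to the log2 change.

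The normalised totals ran between 17531558 and 22076409 per library, with the neurons at the upper end. The 6 neuron markers found in the table, Tubb3 among them, summed to between 151536 and 180623 in neurons, between 32287 and 39433 in differentiating progenitors and between 2130 and 6007 in proliferating progenitors. The 6 intermediate progenitor markers, which include Eomes and Btg2, summed to between 9514 and 11784 in neurons, between 54928 and 70419 in differentiating progenitors and between 22169 and 26312 in proliferating progenitors. The 8 radial glia markers summed to between 5732 and 7096 in neurons, between 46275 and 69360 in differentiating progenitors and between 104199 and 122277 in proliferating progenitors. The 3 sets were highest in neurons, in differentiating progenitors and in proliferating progenitors in turn. Markers of 4 other cell types were counted as well. Red blood cell genes, 9 of 9 above 0 in at least 1 library, summed to between 193 and 277 in neurons, between 224 and 2075 in differentiating progenitors and between 103706 and 258905 in proliferating progenitors. Interneuron and ventral lineage genes, likewise 7 of 7, summed to between 6937 and 8021 in neurons, between 443 and 2901 in differentiating progenitors and between 86 and 982 in proliferating progenitors. Endothelial genes, 8 of 8 above 0, summed to between 57 and 107 in neurons, between 197 and 265 in differentiating progenitors and between 184 and 610 in proliferating progenitors. Microglia genes, 7 of 7 above 0 but with Tyrobp and C1qa at 0 in all neuron libraries, summed to between 27 and 36 in neurons, between 89 and 114 in differentiating progenitors and between 164 and 236 in proliferating progenitors. The part these other cells have in the kinesin values was not tested.

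Many genes of mitosis share a pair of short promoter letters: CCAAT, bound by the factor NF-Y, and TTTGAA, the core of the cell cycle homology region through which the DREAM complex silences such genes in resting cells. Promoter windows from 250 bases before to 50 bases after the RefSeq start (assembly GRCm38.p6) were at hand for 31 of the 41 members and were searched for both motifs on both strands. The last 100 bases before the start are printed for 6 members, 5′ to 3′ on the gene's strand, because they show both motifs in the mitotic kinesins Kif11 and Kif22, TTTGAA letters alone in the mitotic kinesin Kif15, both motifs in Kif26b from outside that class, and neither in the transport kinesins Kif5c and Kif3c. Capitals mark CCAAT or its reverse complement ATTGG, and TTTGAA or its reverse complement TTCAAA. The intervals are chr19:37376282-37376381 on the plus strand for Kif11, chr7:127042421-127042520 on the minus strand for Kif22, chr9:122950981-122951080 on the plus strand for Kif15, chr1:178529025-178529124 on the plus strand for Kif26b, chr2:49619186-49619285 on the plus strand for Kif5c and chr12:3365032-3365131 on the plus strand for Kif3c.
Kif11: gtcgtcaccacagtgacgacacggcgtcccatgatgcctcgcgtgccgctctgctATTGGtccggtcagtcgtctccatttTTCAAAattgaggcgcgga
Kif22: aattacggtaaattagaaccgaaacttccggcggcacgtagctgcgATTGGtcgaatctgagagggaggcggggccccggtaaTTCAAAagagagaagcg
Kif15: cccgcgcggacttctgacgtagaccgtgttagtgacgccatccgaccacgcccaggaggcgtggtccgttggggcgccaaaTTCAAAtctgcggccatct
Kif26b: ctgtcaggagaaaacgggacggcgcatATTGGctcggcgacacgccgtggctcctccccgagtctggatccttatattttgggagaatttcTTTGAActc
Kif5c: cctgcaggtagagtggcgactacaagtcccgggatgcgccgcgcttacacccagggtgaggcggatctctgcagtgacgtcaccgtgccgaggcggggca
Kif3c: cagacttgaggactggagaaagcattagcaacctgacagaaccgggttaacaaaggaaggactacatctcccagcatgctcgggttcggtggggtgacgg

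TTTGAA letters were in the window of 11 of 12 mitotic kinesins, 1 of 8 transport kinesins and 2 of 11 others, against 17.9% of 32851 windows of all genes. Kif18a was the mitotic kinesin whose window lacked them, and Kif20a had no window. Kif1a was the transport kinesin that had them, and Kif26b and Kif27 were the others. No window was at hand for the transport kinesins Kif13b, Kif21b, Kif5a, Kif5b and Kifc2. The same holds for Kif19a, Kifc3 and Kifc5c-ps outside both classes. CCAAT letters were in the windows of 8 of 12 mitotic, 3 of 8 transport and 4 of 11 other kinesins, against 37.4% of all windows. Both motifs together were in 8 of 12 mitotic kinesins, 0 of 8 transport kinesins and 2 of 11 others, against 6.95% of all windows. In these counts a kinesin counted when any of its windows matched, whereas the shares over all genes are of single windows. A match describes letters in a window and is not a shown binding site.

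**Figure D1:**
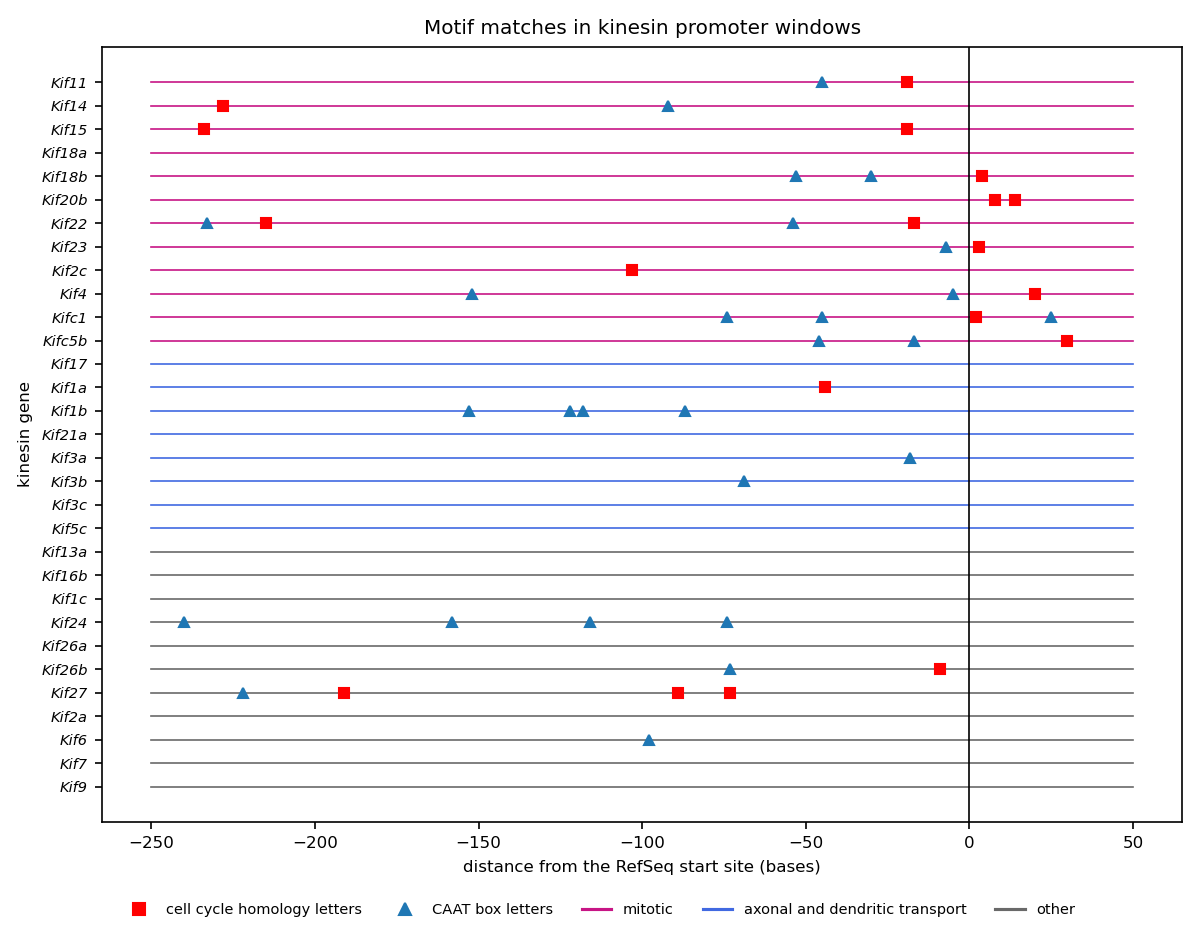
Positions of the searched motifs in the promoter windows of 31 kinesin genes, with the distance from the RefSeq start on the horizontal axis in bases and 1 line per gene coloured by class. Squares are TTTGAA letters and triangles CCAAT letters on either strand: squares stand on 11 of the 12 mitotic lines and on 1 of the 8 transport lines.

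In neurons against differentiating progenitors, the family split by class, though the classes were chosen with earlier results of these data known. Kif2a, which also acts at spindle poles and rose, was placed with the others. All 13 mitotic kinesins fell, 10 of 13 transport kinesins rose and 1 fell, and among the 14 tested others 3 rose and 7 fell. Over the 40 tested members 13 rose, 21 fell and 6 were not called, against a background in which 54.0% of all tested genes were called, 27.6% higher and 26.4% lower. Of all calls, 51.1% were higher, and 37.7% were with libraries rescaled to equal totals. The median log2 change was -4.95 over the mitotic kinesins, 1.01 over the transport kinesins and -0.22 over the others, beside -0.01 over all genes tested. In RNA of pooled cells, fewer cells of a type and less RNA per cell cannot be told apart, which applies to every value below.

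**Figure D2:**
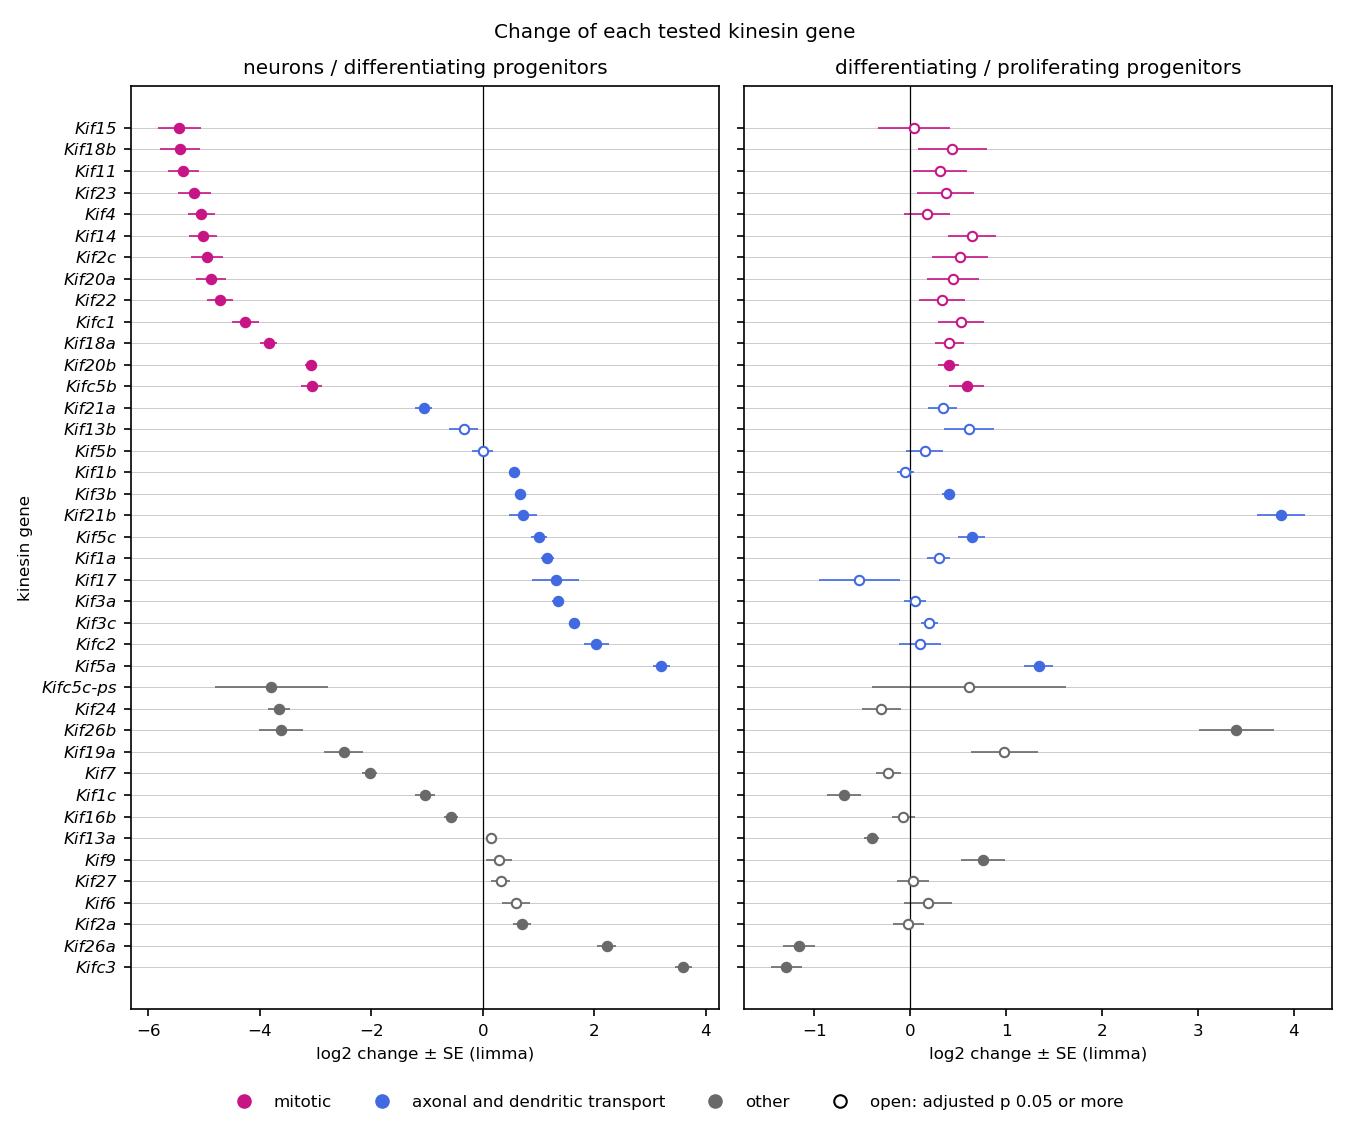
Log2 change of each of the 40 tested kinesins with its standard error (limma), neurons over differentiating progenitors on the left and differentiating over proliferating progenitors on the right, coloured by class, with open points for genes not called. The 13 mitotic kinesins lie between -5.44 and -3.07 on the left and between 0.04 and 0.64 on the right.

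Among the mitotic kinesins, the motors of spindle assembly had some of the deepest falls. Kif11, which slides antiparallel microtubules apart and so makes the spindle bipolar, had 247, 114 and 119 normalised read counts in neurons, against 6979, 5503 and 6263 in differentiating progenitors and 4069, 5410 and 5794 in proliferating progenitors. Kif15, which can hold a spindle bipolar beside Kif11, had 119, 56 and 36 in neurons, 2423, 2623 and 3253 in differentiating progenitors and 2040, 2820 and 3295 in proliferating progenitors. Neurons stood far below both progenitor groups for each gene, with no overlap, while the values of the 2 progenitor groups overlapped. Kif11 fell by 5.37 ± 0.28 on the log2 scale in neurons against differentiating progenitors, which is 41.3-fold (limma adjusted p = 4.43e-07). Kif15 fell by 5.44 ± 0.38, or 43.4-fold (limma adjusted p = 2.41e-06), the largest fall of any member in this comparison. Their promoter letters are those printed above.

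Motors that act at chromosomes, at kinetochores or at microtubule plus ends followed. Kif18b, a motor that shortens microtubules at their plus ends, had 78, 36 and 25 in neurons, 2074, 1620 and 1794 in differentiating progenitors and 998, 1467 and 1645 in proliferating progenitors. Kif2c, a depolymerase that corrects faulty kinetochore attachments, had 92, 52 and 49 in neurons, 1769, 1843 and 2214 in differentiating progenitors and 903, 1559 and 1751 in proliferating progenitors. Every neuron library lay below every progenitor library in both genes. Kif18b fell by 5.43 ± 0.36 in neurons against differentiating progenitors (limma adjusted p = 2.04e-06) and Kif2c fell by 4.95 ± 0.29 (limma adjusted p = 9.42e-07). Kif18a, which damps chromosome oscillations on the spindle, averaged 61.3 ± 7.02 in neurons, 893 ± 95.5 in differentiating progenitors and 673 ± 102 in proliferating progenitors (SD, n = 3 each). Kif22, a chromokinesin that pushes chromosome arms outward, averaged 84 ± 28.2 in neurons, 2156 ± 246 in differentiating progenitors and 1739 ± 386 in proliferating progenitors (SD, n = 3 each). The fall against differentiating progenitors was 14.4-fold for Kif18a (limma adjusted p = 1.29e-07) and 26.1-fold for Kif22 (limma adjusted p = 3.87e-07).

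Motors of the central spindle and of cytokinesis made up the next set. Kif23, the motor subunit of centralspindlin, had 119, 80 and 53 in neurons, 2627, 2928 and 3155 in differentiating progenitors and 1549, 2581 and 2834 in proliferating progenitors. Kif4, a chromokinesin that sets the length of the midzone with Prc1, had 122, 57 and 77 in neurons, 2856, 2418 and 2905 in differentiating progenitors and 2040, 2532 and 2649 in proliferating progenitors. Neurons again did not overlap with either progenitor group in these genes. Kif14, which works with citron kinase at the midbody, had 58, 35 and 28 in neurons, 1443, 1126 and 1284 in differentiating progenitors and 698, 847 and 933 in proliferating progenitors. Kif20a, which brings the Aurora B complex to the midzone, had 133, 81 and 73 in neurons, 2712, 2414 and 3072 in differentiating progenitors and 1394, 2282 and 2468 in proliferating progenitors. For Kif14 the 3 groups did not overlap at all, whereas for Kif20a the progenitor groups did. In neurons against differentiating progenitors Kif23 fell by 5.17 ± 0.30 (limma adjusted p = 8.5e-07) and Kif4 fell by 5.05 ± 0.24 (limma adjusted p = 2.93e-07). In the same comparison Kif14 fell by 5.02 ± 0.25 (limma adjusted p = 3.33e-07) and Kif20a fell by 4.87 ± 0.27 (limma adjusted p = 5.98e-07). Kif4 and Kif20a share 15.1% and 29.3% of their exonic bases with Pdzd11 and Cdc23 on the other strand (GENCODE M21), and since no source used here gives the strand setting of the counting, reads of these pairs may be mixed.

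The shallowest falls of the class were those of Kif20b and Kifc5b. Kif20b, a midbody motor whose loss in mice gives a small cortex, had 197, 189 and 219 in neurons, 1770, 1571 and 1781 in differentiating progenitors and 1154, 1267 and 1464 in proliferating progenitors. Kifc5b, a near copy of Kifc1, had 73, 72 and 67 in neurons, 634, 525 and 657 in differentiating progenitors and 321, 389 and 509 in proliferating progenitors. In both genes the 3 groups were separate, with neurons lowest and differentiating progenitors highest. Kif20b fell by 3.08 ± 0.11 (limma adjusted p = 1.03e-07) and Kifc5b fell by 3.07 ± 0.18 (limma adjusted p = 7.97e-07) in neurons against differentiating progenitors, 8.43-fold in each case. Kifc1, a minus-end motor that focuses spindle poles, averaged 81.7 ± 25.7 in neurons, 1539 ± 172 in differentiating progenitors and 1077 ± 224 in proliferating progenitors (SD, n = 3 each), and it fell 19.2-fold in neurons against differentiating progenitors (limma adjusted p = 6.38e-07). Kifc1, Kifc5b and the pseudogene Kifc5c-ps share long stretches of sequence, as do Kif22 and Kif22-ps, so how reads were split among them is uncertain.

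The mitotic fall did not rest on 1 library or on the scaling. The values of neurons and differentiating progenitors did not overlap in 13 of 13, where 60.7% of all tested genes did not. All 13 were called lower with each library left out in turn, with libraries rescaled to equal totals (median -5.16), with replicate number as a block, and in replicates 2 and 3 alone (median -5.22). The shares of all tested genes called were 56.7% with rescaling, 71.3% with the block and 60.4% in replicates 2 and 3 alone. The authors' deposited table also gives all 13 an adjusted p under 0.05 in this comparison, where 34.2% of all its genes are under that value. Against proliferating progenitors, where 63.3% of all tested genes were called and 31.1% called lower, the 13 mitotic kinesins were lower in neurons as well, with a median log2 change of -4.41 and a range of -5.40 to -2.48. In that comparison, where 42.3% of its genes are under an adjusted p of 0.05, the authors' deposited table again has all 13 under it.

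The neuron libraries were not alike in what was left of these transcripts. Neuron replicate 1 had the highest value of the 3 neuron libraries in 12 of 13 mitotic kinesins, Kif20b being the exception, which was highest in replicate 3. Summed per kilobase of gene length, the mitotic class reached 381, 245 and 222 in neurons, 7393, 6549.7 and 7684 in differentiating progenitors and 4329, 6050.3 and 6756 in proliferating progenitors. Mki67, a proliferation marker, followed the same order in neurons, with 1317, 377 and 357, against 31857, 18175 and 19088 in differentiating progenitors and 24554, 18833 and 18749 in proliferating progenitors. Of the marker sums, those of radial glia (7096, 6235 and 5732), intermediate progenitors (11784, 9514 and 10674), neurons (180623, 162181 and 151536) and interneurons (8021, 6937 and 7016) were all highest in replicate 1 of the neurons, though within the interneuron list Gad1 (1225, 1407 and 1473) and Lhx6 (1449, 1603 and 1881) were lowest there. The part of other cells in these residual values was not tested.

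**Figure D3:**
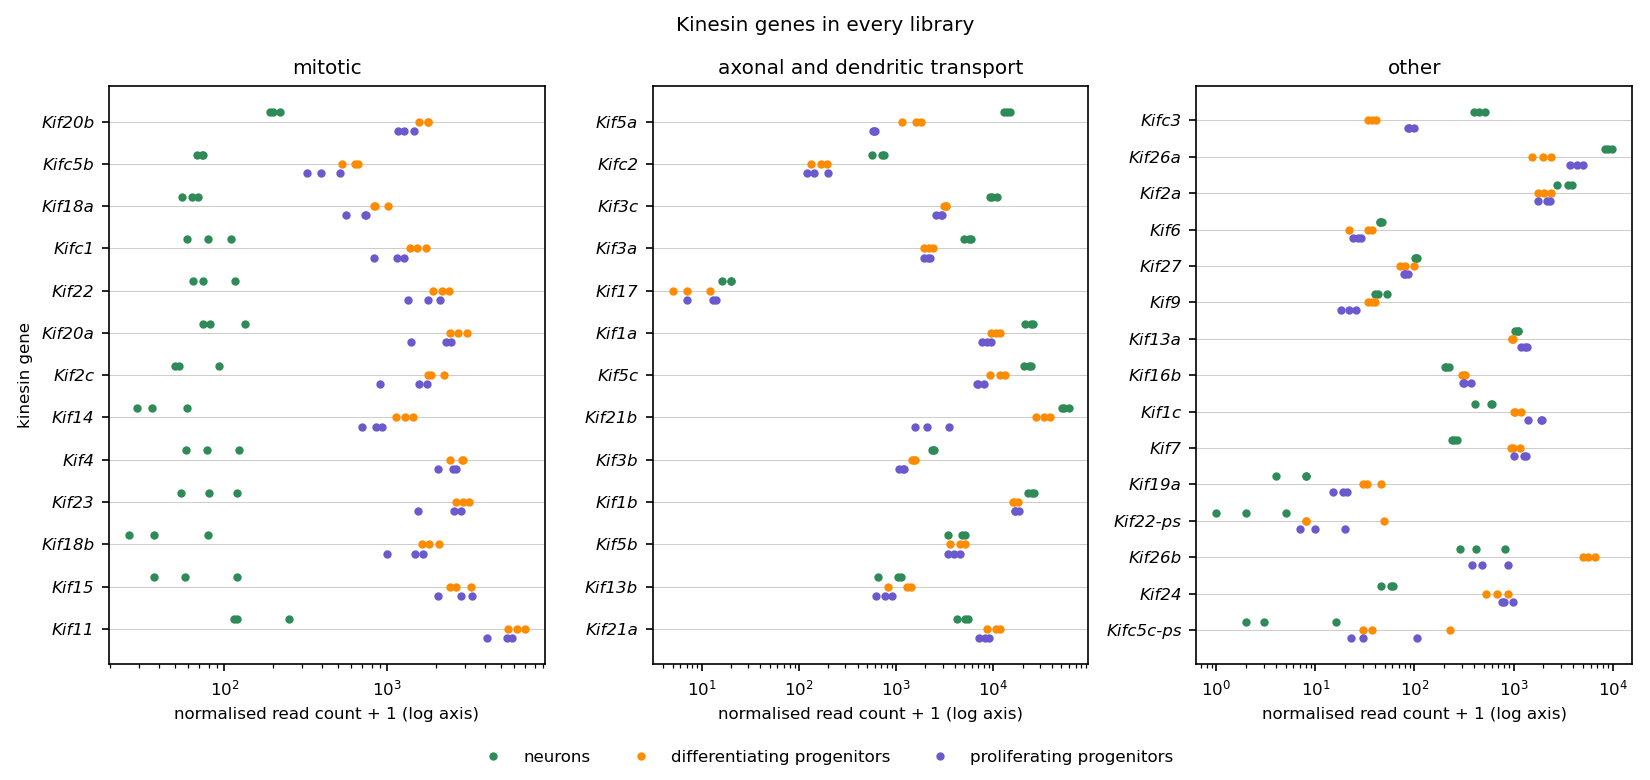
Normalised read count plus 1 of each of the 41 kinesin genes in every library on a log axis, 1 point per library, with neurons drawn above differentiating and proliferating progenitors on each gene's line. All 13 mitotic kinesins have their neuron points left of both progenitor groups, 10 transport kinesins rose in neurons against differentiating progenitors, and the other kinesins show both directions.

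The 13 transport kinesins were more varied, and their highest level per length in neurons belonged to Kif21b. In neurons, the order by normalised read count per kilobase was Kif21b at 5013 ± 421, Kif5c at 3176 ± 252, Kif1a at 2837 ± 261 and Kif5a at 2038 ± 143 (SD, n = 3). The ranges of Kif5c (2892 to 3372) and Kif1a (2552 to 3064) overlapped, so their order is not beyond their spread. In proliferating progenitors the first of the class per kilobase was Kif21a at 1249 ± 152 (SD, n = 3), and the most abundant mitotic kinesin, Kif11 at 1056 ± 188, was next in the family, with values that overlapped with those of Kif21a. Summed per kilobase, the transport class reached 18396, 19793 and 18813 in neurons, 9093, 12035 and 10783 in differentiating progenitors and 5864, 6818 and 6103 in proliferating progenitors. The mitotic sum was 1.5 ± 0.499% of the transport sum in neurons, 69 ± 13.6% in differentiating progenitors and 91.1 ± 18.6% in proliferating progenitors (SD, n = 3 each).

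The kinesin-1 heavy chains, the main carriers of vesicles and mitochondria along axons, did not move together. Kif5a, the chain known as specific to neurons, had 12747, 14666 and 13659 in neurons, 1140, 1795 and 1605 in differentiating progenitors and 597, 574 and 587 in proliferating progenitors. Its 3 groups were separate. Kif5a rose by 3.20 ± 0.15 on the log2 scale in neurons against differentiating progenitors, or 9.19-fold (limma adjusted p = 2.74e-07), and by 1.34 ± 0.15, or 2.53-fold, in differentiating against proliferating progenitors (limma adjusted p = 0.000298). Kif5c, the other chain enriched in neurons, averaged 22685 ± 1800.0 in neurons, 11369 ± 2041 in differentiating progenitors and 7235 ± 669 in proliferating progenitors (SD, n = 3 each), and it rose 2.01-fold in neurons against differentiating progenitors (limma adjusted p = 0.000219). Kif5b, the chain found in most cell types, averaged 4425 ± 910 in neurons, 4396 ± 762 in differentiating progenitors and 3937 ± 568 in proliferating progenitors (SD, n = 3 each). Kif5b was not called in neurons against differentiating progenitors, with a log2 change of 0.00 ± 0.19 (limma adjusted p = 0.993), and its groups overlapped. Of the kinesin-1 chains per kilobase, Kif5a made up 35.1 ± 0.975% in neurons, 9.29 ± 0.455% in differentiating progenitors and 5.38 ± 0.629% in proliferating progenitors, and Kif5b made up 10.2 ± 1.28%, 24.7 ± 0.365% and 32.5 ± 1.67% in the same order of groups (SD, n = 3 each).

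The Kif21 pair differed in direction. Kif21b, a motor that moves along microtubules and restrains their growth in neurons, had 59288, 53189 and 50365 in neurons, 27649, 38565 and 32942 in differentiating progenitors and 3458, 2095 and 1564 in proliferating progenitors. Its groups were separate, and the wide gap lay between the 2 progenitor groups. Kif21b rose by 3.87 ± 0.25, or 14.6-fold, in differentiating against proliferating progenitors (limma adjusted p = 2.48e-05), the largest change of any member in that comparison. In neurons against differentiating progenitors it rose by 0.73 ± 0.25, or 1.65-fold (limma adjusted p = 0.0373), and that call ended with libraries rescaled to equal totals (adjusted p = 0.117), without the intensity trend (0.0564) and in 6 of the 9 fits with 1 library left out (up to 0.111). Kif21a, whose human gene is mutated in a congenital disorder of eye movement nerves, had 4264, 5454 and 5075 in neurons, 8506, 11764 and 10739 in differentiating progenitors and 7090, 9054 and 8224 in proliferating progenitors. Neurons lay below both progenitor groups, which overlapped with each other. With replicate number as a block, Kif21a was called higher in differentiating than in proliferating progenitors (limma adjusted p = 0.000193). That fit called 46.0% of all tested genes. Kif21a fell by 1.06 ± 0.15 in neurons against differentiating progenitors (limma adjusted p = 0.000244), the lone transport kinesin called lower there. Per kilobase, Kif21b made up 86.8 ± 2.19% of the pair in neurons, 65.7 ± 0.817% in differentiating progenitors and 15 ± 6.67% in proliferating progenitors (SD, n = 3 each).

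**Figure D4:**
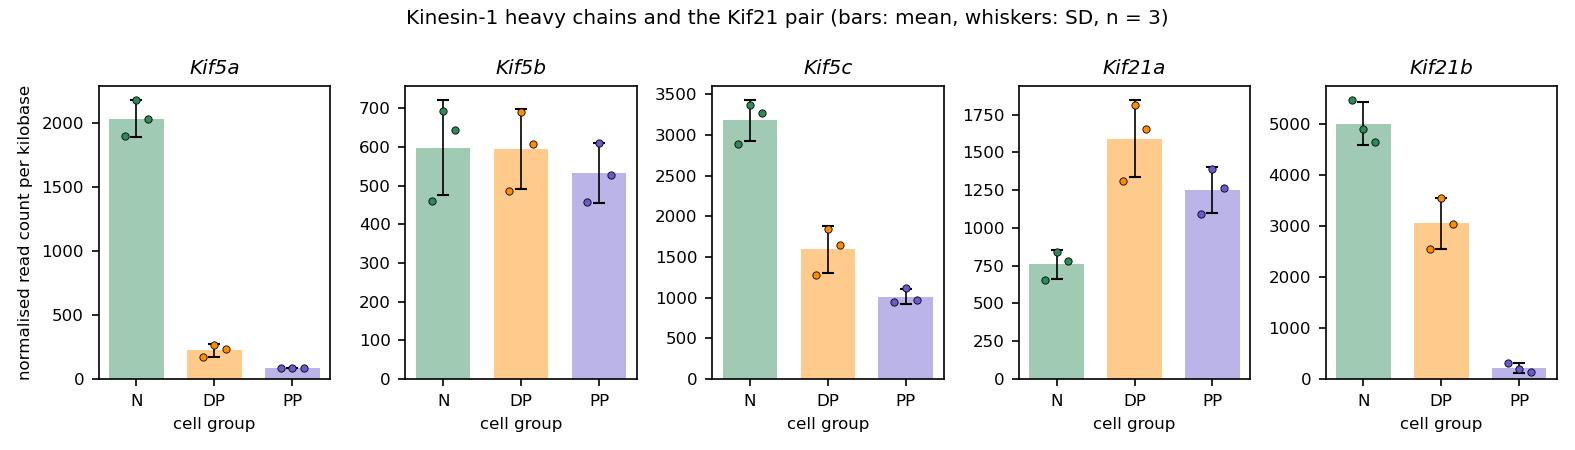
Normalised read count per kilobase of gene length for Kif5a, Kif5b, Kif5c, Kif21a and Kif21b in neurons (N), differentiating progenitors (DP) and proliferating progenitors (PP); bars are means, whiskers SD and points the 3 libraries, each panel on its own axis from 0. Kif5a is highest in neurons at 2038 ± 143, Kif5b averages 598, 594 and 532 in the order of the groups, and Kif21a and Kif21b have opposite orders between neurons and proliferating progenitors.

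All 3 motor subunits of heterotrimeric kinesin-2, which works in cilia and in axons, rose in neurons. Kif3a had 4985, 5893 and 5579 in neurons, 1933, 2393 and 2154 in differentiating progenitors and 1909, 2238 and 2097 in proliferating progenitors. Kif3c, which pairs with Kif3a in neurons, had 11009, 9611 and 9309 in neurons, 3218, 3285 and 3117 in differentiating progenitors and 2879, 2932 and 2569 in proliferating progenitors. Neurons were apart from both progenitor groups in each gene, and the progenitor groups overlapped in Kif3a but not in Kif3c. Kif3a rose by 1.35 ± 0.11, or 2.54-fold (limma adjusted p = 5.96e-06), and Kif3c by 1.63 ± 0.09, or 3.1-fold (limma adjusted p = 5.79e-07), in neurons against differentiating progenitors. The Kif3c gene shares 35.3% of its exonic bases with the antisense gene 1110002L01Rik, so its value is uncertain for the reason given for Kif4. Kif3b, the usual partner of Kif3a, averaged 2384 ± 66.3 in neurons, 1509 ± 43.7 in differentiating progenitors and 1144 ± 58.7 in proliferating progenitors (SD, n = 3 each), a rise of 1.58-fold in neurons against differentiating progenitors (limma adjusted p = 5.47e-05). Kif17, a kinesin-2 motor that carries NMDA receptor subunits in dendrites, was near the filter with 15, 19 and 19 in neurons, 6, 4 and 11 in differentiating progenitors and 6, 13 and 12 in proliferating progenitors. Its neuron values lay above all progenitor values, the rise against differentiating progenitors was 1.31 ± 0.42 (limma adjusted p = 0.0242), and leaving out neuron replicate 2 or 3 or differentiating progenitor replicate 1 or 2 ended the call (adjusted p up to 0.0823). For this rise of Kif17 the authors' deposited table gives an adjusted p of 0.11.

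Among the carriers of synaptic vesicle precursors, Kif1a had 21206, 25467 and 24071 in neurons, 9343, 11673 and 10670 in differentiating progenitors and 7623, 9547 and 8569 in proliferating progenitors. Neurons were more than the spread above both progenitor groups, whose values overlapped, and Kif1a rose by 1.16 ± 0.12, or 2.24-fold, against differentiating progenitors (limma adjusted p = 3.41e-05). With replicate number as a block, Kif1a was also called higher in differentiating than in proliferating progenitors (limma adjusted p = 0.000251). That fit called 46.0% of all tested genes. Kif1b, which also has a form that carries mitochondria, averaged 24631 ± 1795 in neurons, 16701 ± 969 in differentiating progenitors and 17246 ± 1035 in proliferating progenitors (SD, n = 3 each), a rise of 1.47-fold in neurons against differentiating progenitors (limma adjusted p = 0.000555). Kifc2, a minus-end motor found in neurons, had 567, 719 and 744 in neurons, 132 to 195 with a mean of 164 in differentiating progenitors, and 121, 143 and 199 in proliferating progenitors. The neurons lay above all progenitor libraries, and the rise against differentiating progenitors was 2.04 ± 0.22, or 4.12-fold (limma adjusted p = 4.23e-05). Kif13b, which carries the scaffold Dlg1, averaged 932 ± 249 in neurons, 1176 ± 310 in differentiating progenitors and 760 ± 142 in proliferating progenitors (SD, n = 3 each). Kif13b was not called in neurons against differentiating progenitors (log2 change -0.34 ± 0.26, limma adjusted p = 0.319), but it was called lower with replicate number as a block (adjusted p = 0.00251) and in replicates 2 and 3 alone (adjusted p = 0.0193).

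The 10 rises of the transport class became 9 with libraries rescaled to equal totals, which moved the median of all genes by -0.21 on the log2 scale, and Kif21b was the one lost. Against proliferating progenitors, with 32.2% of all tested genes called higher, 9 of 13 were higher in neurons and Kif21a was lower, with a median log2 change of 1.40. Of all calls in that comparison 50.9% were higher, and 37.1% were with rescaled libraries, under which 66.4% of all tested genes were called and 9 transport kinesins were again higher. With replicate number as a block 11 of 13 were higher, where 78.2% of all tested genes were called: Kif13b (log2 change 0.27, adjusted p = 0.00718) and Kif5b (log2 change 0.16, adjusted p = 0.0251) were added. The largest of these were Kif21b at 4.59 ± 0.25 (24.1-fold, limma adjusted p = 3.82e-07) and Kif5a at 4.54 ± 0.15 (23.3-fold, limma adjusted p = 2.75e-08).

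Kinesins outside both classes moved in either direction, and the pair Kif26a and Kif26b had opposite patterns. Kif26b, an atypical member known for its role in kidney formation, had 827, 290 and 420 in neurons, 5656, 6563 and 5031 in differentiating progenitors and 870, 478 and 376 in proliferating progenitors. Its differentiating progenitor values were separate from both other groups, which overlapped with each other. Kif26b was 10.6-fold higher in differentiating than in proliferating progenitors (log2 3.40 ± 0.39, limma adjusted p = 0.000341) and fell by 3.62 ± 0.39 in neurons against differentiating progenitors (limma adjusted p = 4.8e-05). Kif26a, a member without ATPase activity that holds back growth factor signalling in gut neurons, had 9897, 8302 and 8899 in neurons, 2360, 1520 and 1994 in differentiating progenitors and 4989, 3732 and 4319 in proliferating progenitors. The 3 groups were separate, with differentiating progenitors lowest: Kif26a rose by 2.22 ± 0.17 in neurons against them (limma adjusted p = 4.07e-06) and was lower by -1.16 ± 0.17 in them against proliferating progenitors (limma adjusted p = 0.00111). Per kilobase, Kif26b made up 4.61 ± 2.01% of the pair in neurons, 72 ± 6.24% in differentiating progenitors and 10.2 ± 3.1% in proliferating progenitors (SD, n = 3 each). The Kif26b window printed above holds both sets of motif letters.

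Kifc3, a minus-end motor known from epithelial junctions and apical transport, followed the order of Kif26a. It had 394, 517 and 447 in neurons, 40, 33 and 36 in differentiating progenitors and 85, 88 and 97 in proliferating progenitors. The groups were separate, with differentiating progenitors lowest, and the rise in neurons against them was 3.60 ± 0.16, or 12.1-fold (limma adjusted p = 2.05e-07), the largest rise of any member in that comparison. Against proliferating progenitors, differentiating progenitors were lower by -1.29 ± 0.16 (limma adjusted p = 0.000496). Kif2a, a depolymerase that trims axon branches and also acts at spindle poles, averaged 3386 ± 582 in neurons, 2061 ± 293 in differentiating progenitors and 2094 ± 293 in proliferating progenitors (SD, n = 3 each), a rise of 1.64-fold in neurons against differentiating progenitors (limma adjusted p = 0.00486). Kif2a shares 19.2% of its exonic bases with Dimt1 on the other strand.

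Kif24 and Kif7, known from the centriole and the primary cilium, fell in neurons. Kif24, which sits at the mother centriole and restrains cilium assembly, had 60, 45 and 57 in neurons, 880, 529 and 686 in differentiating progenitors and 804, 757 and 980 in proliferating progenitors. Kif7, a regulator of Hedgehog signalling at the cilium tip, had 237, 248 and 266 in neurons, 989, 933 and 1158 in differentiating progenitors and 1021, 1268 and 1322 in proliferating progenitors. For these genes neurons were apart from progenitors, and the progenitor groups overlapped. Kif24 fell by 3.65 ± 0.20, or 12.5-fold (limma adjusted p = 6.56e-07), and Kif7 by 2.03 ± 0.13, or 4.08-fold (limma adjusted p = 1.39e-06), in neurons against differentiating progenitors. Kif7 shares 19.1% of its exonic bases with the antisense gene 9330171B17Rik. Kif19a, a motor of motile cilia, was low, with 7, 7 and 3 in neurons, 29, 32 and 45 in differentiating progenitors and 18, 14 and 20 in proliferating progenitors. Its groups did not overlap, and it fell by 2.49 ± 0.35 in neurons against differentiating progenitors (limma adjusted p = 0.000274). The motile cilia genes Kif6, Kif9 and Kif27 averaged between 44.3 and 103 in neurons, between 30 and 83 in differentiating progenitors and between 21 and 80.7 in proliferating progenitors, and none of these 3 was called in neurons against differentiating progenitors (limma adjusted p 0.07, 0.334 and 0.151), though Kif6 was with replicate number as a block (adjusted p = 0.0494).

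Motors of the endosome and Golgi were a smaller set. Kif1c, a motor linked to the Golgi, had 410, 586 and 601 in neurons, 1041, 1012 and 1191 in differentiating progenitors and 1406, 1899 and 1958 in proliferating progenitors. The 3 groups were separate, with neurons lowest and proliferating progenitors highest. Kif1c fell by 1.04 ± 0.18 in neurons against differentiating progenitors (limma adjusted p = 0.000887) and was lower by -0.69 ± 0.18 in differentiating against proliferating progenitors (limma adjusted p = 0.0215). The second of these calls ended when differentiating progenitor replicate 2 or proliferating progenitor replicate 2 or 3 was left out (adjusted p up to 0.0792). Kif16b, a motor of early endosomes, averaged 210 ± 10.2 in neurons, 314 ± 9.71 in differentiating progenitors and 330 ± 38 in proliferating progenitors (SD, n = 3 each), a fall of 1.49-fold in neurons against differentiating progenitors (limma adjusted p = 0.00257). Kif13a, which carries the mannose-6-phosphate receptor, averaged 1081 ± 50.1 in neurons, 977 ± 7 in differentiating progenitors and 1288 ± 94.9 in proliferating progenitors (SD, n = 3 each), and was not called in neurons against differentiating progenitors (log2 0.14 ± 0.08, limma adjusted p = 0.178), though it was with replicate number as a block (adjusted p = 0.0456).

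The 2 pseudogenes varied widely within groups. Kifc5c-ps had 15, 2 and 1 in neurons, 230, 36 and 29 in differentiating progenitors and 104, 22 and 29 in proliferating progenitors, and Kif22-ps had 4, 1 and 0, then 48, 7 and 7, then 19, 6 and 9 in the same order of groups. Replicate 1 was the highest library in every group for both genes. Kifc5c-ps fell by 3.79 ± 1.01 in neurons against differentiating progenitors (limma adjusted p = 0.0106), with the widest standard error of any member, and the authors' deposited table gives it an adjusted p of 0.13. Its log2 change was -4.70 without neuron replicate 1, -3.20 without neuron replicate 3, -2.86 without differentiating progenitor replicate 1 and -2.87 with a pseudocount of 5.

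**Figure D5:**
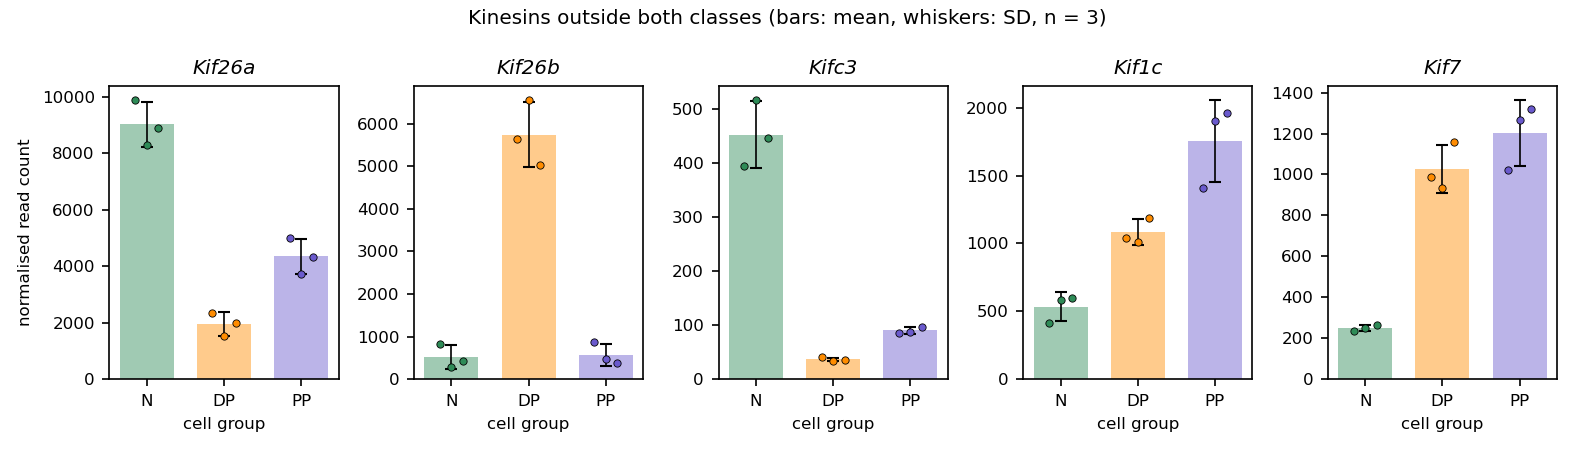
Normalised read count of Kif26a, Kif26b, Kifc3, Kif1c and Kif7 in neurons (N), differentiating progenitors (DP) and proliferating progenitors (PP); bars are means, whiskers SD and points the 3 libraries, each panel on its own axis from 0. Kif26b is highest in differentiating progenitors, from 5031 to 6563, while Kif26a and Kifc3 are lowest there, and Kif1c is lowest in neurons and highest in proliferating progenitors.

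Differentiating against proliferating progenitors was a smaller contrast for the family. Of 40 tested members 8 rose and 4 fell, where 24.9% of all tested genes were called, 13.8% higher and 11.1% lower. The median log2 change was 0.41 over the mitotic kinesins, 0.30 over the transport kinesins and -0.05 over the others, beside -0.02 over all genes tested. With replicate number as a block, 15 rose and 5 fell, where 46.0% of all tested genes were called.

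Mitotic kinesins were called higher in 2 of 13 cases, Kif20b and Kifc5b, a share near the 13.8% of all tested genes called higher. The values of these 2 genes in every library are given above. Kif20b was higher by 0.40 ± 0.11 in differentiating than in proliferating progenitors (limma adjusted p = 0.0308), and Kifc5b by 0.59 ± 0.18 (limma adjusted p = 0.0381). All 13 log2 changes were above 0, from 0.04 for Kif15 to 0.64 for Kif14, where 7625 of 15828 tested genes were above 0. With libraries rescaled to equal totals, where 26.2% of all tested genes were called, 12 of 13 were above 0 and 0 were called. In replicates 2 and 3 alone, where 35.3% of all tested genes were called, 12 of 13 were above 0, the median was 0.19 and 0 were called. With replicate number as a block, where 46.0% of all tested genes were called, 4 were called, with Kif14 and Kif18a added. Kif20b and Kifc5b also lost their calls when several single libraries were left out, among them proliferating progenitor replicate 1 (adjusted p 0.0915 and 0.103). That library had the lowest value of its group in 13 of 13 mitotic kinesins, and proliferating progenitor replicate 3 had the highest in 13 of 13. Top2a, a marker of dividing cells, had 17394, 16780 and 17420 in differentiating progenitors and 9211, 13909 and 14225 in proliferating progenitors, while Mki67 was highest of its group in that library, at 24554. Of the 4 proliferation markers, Pcna and Mcm2 were called lower in differentiating than in proliferating progenitors. Their log2 changes were -0.48 and -0.51 (limma adjusted p = 0.0101 and 0.00152), while Mki67 and Top2a were not called. Red blood cell genes also stood highest in proliferating progenitor replicate 1, at a sum of 258905, against 103706 and 117978 in replicates 2 and 3, and the part they have was not tested. The authors' deposited table, where 13.6% of all genes are under an adjusted p of 0.05, gives Kif14 an adjusted p of 0.023 and Kif20b and Kifc5b 0.25 and 0.15.

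Transport kinesins were called higher in 4 cases, Kif21b, Kif5a, Kif5c and Kif3b, and 0 of 13 were called lower. Over all tested genes, 13.8% were called higher and 11.1% lower. Kif5c had 9150, 13167 and 11791 in differentiating progenitors, against 6778, 8002 and 6924 in proliferating progenitors. Kif3b had 1546, 1461 and 1521 in differentiating progenitors, against 1193, 1160 and 1079 in proliferating progenitors. Neither gene's groups overlapped. Kif5c rose by 0.64 ± 0.14, or 1.56-fold (limma adjusted p = 0.0095), and Kif3b by 0.40 ± 0.07, or 1.32-fold (limma adjusted p = 0.00402). The authors' deposited table gives Kif3b an adjusted p of 0.15, while Kif21b, Kif5a and Kif5c are under 0.05 there. With the replicate block 9 of 13 were called higher, with Kif13b, Kif1a, Kif21a, Kif3c and Kif5b added, and in replicates 2 and 3 alone 7 were, beside 46.0% and 35.3% of all tested genes called in those fits. Neuron markers, between 32287 and 39433 in differentiating progenitors and between 2130 and 6007 in proliferating progenitors, moved in the same direction as these genes, and their part was not tested.

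Among the others, Kif26b and Kif9 were called higher, and Kif26a, Kifc3, Kif1c and Kif13a lower. Kif9 had 33, 36 and 39 in differentiating progenitors, against 25, 17 and 21 in proliferating progenitors. Its groups were separate and the rise was 0.76 ± 0.23 (limma adjusted p = 0.0402), but 11 of the alternatives ended the call, 8 of them fits with 1 library left out (adjusted p up to 0.127). Kif13a had 974, 985 and 972 in differentiating progenitors, against 1183, 1368 and 1312 in proliferating progenitors, and was lower by -0.40 ± 0.08 (limma adjusted p = 0.00819). The authors' deposited table gives Kif9 and Kif13a adjusted p of 0.28 and 0.15 in this comparison. Kif7 joined the falls with the replicate block (adjusted p = 0.0469).

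Across both comparisons with differentiating progenitors, 10 of 40 members were called in each, as were 18.5% of all tested genes. Kif21b, Kif5a, Kif5c and Kif3b were higher in differentiating than in proliferating progenitors and higher again in neurons, and Kif1c was lower at both. Kif20b, Kifc5b and Kif26b were highest in differentiating progenitors, and Kif26a and Kifc3 were lowest there. The 2 comparisons share the differentiating progenitor libraries.

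Partner genes were tested in the same fit. In neurons against differentiating progenitors it called 54.0% of all tested genes, 27.6% higher and 26.4% lower. Partner counts with libraries rescaled to equal totals, which moved the median of all genes by -0.21, are not given here. Of 9 mitotic partners, 8 fell and 1 rose in neurons against differentiating progenitors. These were proteins of the midzone and the chromosomal passenger complex, together with Tpx2 and the kinesins Cenpe and Stard9. Cdca8, a passenger complex subunit, had 124, 92 and 84 in neurons, 2459, 2109 and 2402 in differentiating progenitors and 1816, 2418 and 2492 in proliferating progenitors. Racgap1, which binds Kif23 in centralspindlin, had 629, 542 and 580 in neurons, 5432, 4469 and 4946 in differentiating progenitors and 4704, 5124 and 5254 in proliferating progenitors. Neurons did not overlap with progenitors in either gene. Against differentiating progenitors Cdca8 fell by 4.54 ± 0.17 (limma adjusted p = 1.05e-07) and Racgap1 fell by 3.08 ± 0.10 (limma adjusted p = 5.41e-08). Stard9, a kinesin of the centrosome, was the one that rose, averaging 1670 ± 69.9 in neurons, 1375 ± 33.2 in differentiating progenitors and 976 ± 37.6 in proliferating progenitors (SD, n = 3 each; limma adjusted p = 0.0102 in neurons against differentiating progenitors).

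Of 17 tested cargo adaptors and light chains, 11 rose and 0 fell in neurons against differentiating progenitors, with a median log2 change of 0.74. Over all tested genes, 27.6% were called higher and 26.4% lower in that comparison. Kidins220, a membrane protein that kinesin-1 carries, had 26622, 29684 and 26213 in neurons, 5926, 7739 and 6568 in differentiating progenitors and 4538, 4646 and 3913 in proliferating progenitors. Mapk8ip2, a scaffold that links cargo to kinesin-1 light chains, had 7195, 6787 and 6678 in neurons, 2669, 2852 and 2760 in differentiating progenitors and 2185, 1881 and 1969 in proliferating progenitors. In both genes the 3 groups were separate and neurons highest. Kidins220 rose by 2.03 ± 0.12 (limma adjusted p = 7.82e-07) and Mapk8ip2 by 1.32 ± 0.08 (limma adjusted p = 1.03e-06) in neurons against differentiating progenitors.

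Dynein and dynactin, the motor and its cofactor that travel towards microtubule minus ends, had 13 of 20 tested genes higher and 1 lower in neurons against differentiating progenitors, with a median log2 change of 0.58. Beside these counts, 27.6% of all tested genes were called higher and 26.4% lower. Dync1i1, the intermediate chain known from neurons, had 809, 1512 and 1077 in neurons, 17, 16 and 22 in differentiating progenitors and 15, 23 and 16 in proliferating progenitors. Nde1, a dynein regulator that acts in mitosis and in cortical progenitors, had 146, 138 and 160 in neurons, 2872, 2237 and 2369 in differentiating progenitors and 2761, 2951 and 3020 in proliferating progenitors. These genes had opposite directions, with neurons apart from both progenitor groups in each. Dync1i1 rose by 5.84 ± 0.27 (limma adjusted p = 2.6e-07), Bicd1, a dynein cargo adaptor, by 1.03 ± 0.12 (limma adjusted p = 7.56e-05), and Nde1 fell by 4.06 ± 0.11 (limma adjusted p = 4.7e-08).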

How the data were processed

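Per the submitters' processing notes, the tools were CASAVA 1.8.0, BWA, bedtools 2.11 and DESeq 1.8.1, with build mm9. Read depth, strand setting and the use of each tool are not given in the sources used here. What the authors deposited is a normalised score per gene and library, read counts scaled and given as whole numbers; per the file headers, the genes are those of Ensembl version 61. They also deposited group ratios as folds, an adjusted p-value per comparison, and the gene length in bases.

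The 15828 genes that reached 10 in 3 or more libraries were fitted with limma 3.58.1 (R 4.3.3) on log2(value + 1), with a mean per group, an intensity trend and 6 residual degrees of freedom, and p-values were adjusted over them by Benjamini-Hochberg. No count model was used, since the values are normalised and rounded, and the pseudocount of 1 understates changes of low genes. The script was tested on simulated data. Other steps used Python 3.11.15, numpy 2.4.6 and pandas 2.3.3, and all 41 members were matched in GENCODE M21 by identifier. Not every gene overlap is reported here.

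The members, classes, lists and markers were chosen with earlier results of these data known. Values in every library are given for up to 8 called members per class with the largest log2 change in the 2 comparisons with differentiating progenitors, for members highest or lowest in that group, and, chosen after their values were seen, for Kif5c, Kif3b, Kif9, Kif13a, Kif22-ps, Mki67 and Top2a. Each partner list gives its 2 called genes with the smallest adjusted p per direction.

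Equal replicate numbers pair the libraries: after removal of group means, all 9 equal-numbered pairs correlated across genes (r from 0.507 to 0.767), against -0.64 to 0.428 in other pairs. A blocked fit, with 4 residual degrees of freedom, is given where it changes a call or moves a count by over 1.5 times. The libraries are pools, so p-values measure the spread between these pools. Other alternatives were the pseudocount, the filter, equal totals, no trend, 2 groups alone, replicates 2 and 3 alone, and each library left out.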

Additional observations from a re-analysis of the deposited data

How the results depend on the processing

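In neurons against differentiating progenitors and against proliferating progenitors, all 13 mitotic kinesins were lower under every alternative. Rescaling every library to the same total moved the median of all genes by -0.21, -0.07 and -0.29 on the log2 scale in neurons against differentiating progenitors, differentiating against proliferating progenitors and neurons against proliferating progenitors; the share of higher among all calls went to 37.7%, 45.5% and 37.1%, against 51.1%, 55.4% and 50.9% as deposited. The 8 members higher in differentiating than in proliferating progenitors became 5 with rescaling, 15 with the replicate block (under which calls over all genes went to 46%, against 24.9%) and 5 to 8 with 1 library left out. Among the mitotic kinesins the count of 2 became 0 with rescaling, 0 in replicates 2 and 3 alone, 1 with the 6 libraries of these groups (Kif14, with Kif20b and Kifc5b lost), 4 with the block and 0 to 3 with 1 library left out. The 4 transport kinesins became 9 with the block and 7 in replicates 2 and 3 alone. The 2 others became 1 with no filter, with a filter of 50, with rescaling and with the 6 libraries, and 1 to 2 with 1 library left out. In neurons against differentiating progenitors, the 1 lower transport kinesin became 2 with the block and in replicates 2 and 3 alone, and the 3 higher others became 5 with the block. In neurons against proliferating progenitors, the 5 higher others became 3 with a filter of 50, since Kif6 and Kif9 were then not tested. Where no construction is named, the cause was not tested. Of the single member changes under alternatives, 2068 kept their side of the threshold, 52 lost the call and 25 gained it. No called change took the other sign, while 22 changes of members that were not called did. Calls lost beside those named above were Kif13a, Kif6 and Kifc5c-ps in neurons against proliferating progenitors. Read depth behind the deposited values is unknown, so how far it limits the low members Kif17, Kif19a, Kif9 and Kif6 was not tested.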
